A study of Mus musculus with 6 samples.

Results

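The 6 genes Mtap1a, Mtap1b, Mtap2, Mtap4, Mtap6 and Mapt encode structural proteins that bind along microtubules, and they are described here in the nucleus accumbens of mice after repeated cocaine. They were taken by symbol from 1 deposited table, where they hold 7 of 21540 records and 6 of 21203 gene symbols, and they were chosen by the group values of Mtap1a and Mtap2, which differ between cocaine and saline in that table. The values that chose them are therefore a description and support nothing further. The table writes the genes with the older prefix Mtap; their present symbols are Map1a, Map1b, Map2, Map4 and Map6.

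The tissue was the nucleus accumbens, a ventral part of the striatum, of C57BL/6 mice. The cocaine group received 7 daily intraperitoneal injections at 20 mg/kg and the saline group is labelled as the repeated saline control, both taken 4 h into withdrawal, with 3 libraries per group. Saline libraries carry the cocaine dosing in their protocol text, and were grouped by the treatment field. Whether a library stands for 1 animal or for pooled tissue is not stated. Each gene has 1 FPKM value per group in the authors' deposited table (fragments scaled by transcript length and by the library's mapped fragments). Values of single libraries are not in it, so levels come without an SD, and the read depth is unknown. In bulk tissue, fewer cells of a type and less RNA per cell cannot be told apart.

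Microtubules are the tracks for transport in axons and dendrites, and microtubule-associated proteins set how stable and how closely spaced they are. MAP1A and MAP1B are long filamentous proteins, each cleaved into a heavy and a light chain; MAP1B prevails in growing axons and MAP1A in mature neurons. MAP2, MAP4 and tau, the product of Mapt, share a family of microtubule-binding repeats: MAP2 is kept in cell bodies and dendrites, tau is concentrated in axons, and MAP4 is made in many cell types besides neurons. MAP6, also called STOP, makes microtubules resist cold and drugs. MAP2 and tau are regulated by kinases that release them from the microtubule.

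The status column decides what can be said of each gene. Mtap1a and Mtap2 are both marked FAIL in the authors' deposited table, with a log2 fold change entered as 0 and a p-value and q-value entered as 1. In the program whose layout the table has, that mark stands for a numerical failure that stopped the test, so those entries are placeholders and not results. The table thus holds no test of the difference for either gene. Whether the failure also touched the group values of Mtap1a and Mtap2 is not stated, so their levels and ratios carry that doubt. Mtap1b, Mtap4, Mtap6 and Mapt each have a record marked OK, which means tested. Mtap4 has a second record under the same gene identifier, marked LOWDATA, at 0.644 FPKM in saline and 0.329 FPKM in cocaine, and it is not used further.

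The series title names 5-hydroxymethylcytosine, a mark carried mainly by CG dinucleotides, so the start regions of the 2 genes that prompted the choice are shown, followed by that of Mtap1b, the called member. Each runs from 250 bases before to 50 after the annotated start, 5′ to 3′ on the gene's strand, from RefSeq on build GRCm38.p6, with every CG in capitals. That is a later build than NCBIM37, which the submitters' processing notes name. Mtap1a lies at chr2:121289352-121289651 (plus strand), Mtap2 at chr1:66175079-66175378 (plus strand) and Mtap1b at chr13:99516553-99516852 (minus strand).
Mtap1a: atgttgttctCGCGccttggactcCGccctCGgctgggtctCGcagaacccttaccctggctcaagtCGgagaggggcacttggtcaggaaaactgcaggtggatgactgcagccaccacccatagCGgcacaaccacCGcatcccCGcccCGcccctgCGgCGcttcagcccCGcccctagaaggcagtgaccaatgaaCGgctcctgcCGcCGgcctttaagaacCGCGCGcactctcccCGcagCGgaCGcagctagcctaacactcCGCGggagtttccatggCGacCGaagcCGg
Mtap2: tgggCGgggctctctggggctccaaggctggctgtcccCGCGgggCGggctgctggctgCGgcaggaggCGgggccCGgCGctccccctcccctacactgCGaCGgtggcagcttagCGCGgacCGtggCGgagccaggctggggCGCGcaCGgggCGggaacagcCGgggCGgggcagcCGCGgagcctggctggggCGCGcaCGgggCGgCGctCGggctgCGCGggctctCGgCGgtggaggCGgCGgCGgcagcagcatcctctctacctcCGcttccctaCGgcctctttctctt
Mtap1b: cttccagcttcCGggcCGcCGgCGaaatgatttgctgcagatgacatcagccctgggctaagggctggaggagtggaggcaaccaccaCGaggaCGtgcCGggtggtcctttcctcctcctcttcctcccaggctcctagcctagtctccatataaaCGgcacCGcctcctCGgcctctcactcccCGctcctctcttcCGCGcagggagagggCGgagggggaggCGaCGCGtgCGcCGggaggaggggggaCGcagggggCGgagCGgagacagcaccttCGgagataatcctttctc
The window of Mtap2 holds 37 CG, that of Mtap1a 27 and that of Mtap1b 23, against a median of 7 over 32851 mouse windows of the same length. At least as many CG stood in 5.58% of those windows for Mtap2, 15.5% for Mtap1a and 21.5% for Mtap1b. The motif GGGCGG, searched on both strands with overlaps counted, occurred 5 times in the Mtap2 window, 4 times in that of Mtap1a and 2 times in that of Mtap1b, and 35.7% of all windows hold at least 1. Mtap4 has 2 annotated windows, with 42 and 5 CG. These letters describe the sequence only; no methylation or binding was measured in the table. Mtap6 and Mapt are named only.

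Mtap2 had the highest level of the 6, at 191 FPKM in saline and 219 FPKM in cocaine, per the authors' deposited table. Mtap1a followed at 153 FPKM in saline and 178 FPKM in cocaine. Mtap4 stood at 123 FPKM in saline and 116 FPKM in cocaine, the level of the used record. These are the 3 most abundant members, and the cocaine value was above the saline value for Mtap2 and Mtap1a and below it for Mtap4. Mapt stood at 100.4 FPKM in saline and 96.3 FPKM in cocaine. Mtap1b stood at 79.95 FPKM in saline and 82.6 FPKM in cocaine. Mtap6 was the lowest, at 36.1 FPKM in saline and 34.9 FPKM in cocaine. The order of the 6 levels was the same in both groups, and with no spread between libraries no pair of neighbours in it can be said to differ. All 6 are abundant: of 12976 tested records of at least 1 FPKM, 2.19% lay above the mean level of Mtap2 and 19.3% above that of Mtap6.

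**Figure D1:**
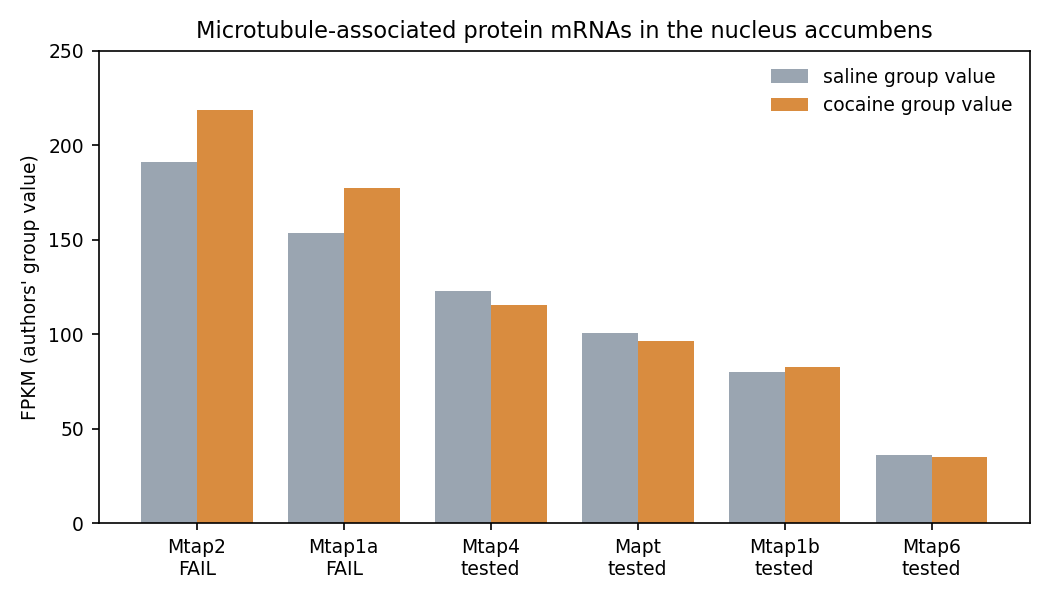
Group FPKM values of the 6 genes (bars from 0, saline grey, cocaine orange), ordered by level, 1 value per group with no error available. The cocaine bar is above the saline bar for Mtap2, Mtap1a and Mtap1b and below it for Mtap4, Mapt and Mtap6.

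The 6 levels summed to 684 FPKM in saline and 726 FPKM in cocaine. The 2 genes marked FAIL summed to 345 FPKM in saline and 396 FPKM in cocaine, while the 4 tested genes summed to 339.5 FPKM in saline and 329 FPKM in cocaine. The higher total in cocaine thus lies in the records for which the authors' test failed. Within the MAP1 pair, the level of Mtap1a was 1.92 times that of Mtap1b in saline and 2.15 times in cocaine. Within the MAP2 and tau family, the level of Mtap2 was 1.91 times that of Mapt in saline and 2.27 times in cocaine. Mtap4 over Mapt was 1.23 in saline and 1.20 in cocaine. Mtap1a and Mtap2 were chosen because their group values differ, and both are marked FAIL. The sums and ratios that hold them are thus a description only.

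For Mtap1a the ratio of the group values, cocaine over saline, was 1.16-fold, a log2 ratio of 0.21. For Mtap2 it was 1.14-fold, a log2 ratio of 0.19. Both were recomputed from the group values, since the entry in the authors' deposited table is the placeholder. Among the 12976 tested records of at least 1 FPKM, whose median log2 ratio was -0.02, 3.41% had a ratio at or above that of Mtap1a and 4.21% one at or above that of Mtap2. Among records of at least 5 FPKM, a limit chosen after seeing the data, the shares were 1.96% for Mtap1a and 2.58% for Mtap2. These shares place the values and test nothing.

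The FAIL mark was given to 217 records, 1.01% of the table, of which 210 reached 1 FPKM. Their median log2 ratio was -0.01 and 101 of the 210 lay above 0. Mtap2 had the highest level of the 210 and Mtap1a the fourth highest. By log2 ratio Mtap1a was 8th and Mtap2 10th from the top. Mtap1a and Mtap2 were chosen because their group values differ, so their places by ratio are a description only. At a mean of at least 100 FPKM there were 16 FAIL records, and Mtap1a and Mtap2 had the first and second highest ratios among them. The other 14 ran from -0.09 for Hp1bp3 to 0.12 for Kif1b, with a median of 0.01; Kif1b encodes a kinesin motor and stood at 138 FPKM in saline and 149.6 FPKM in cocaine. FAIL records of at least 1 FPKM had a median of 8 annotated transcripts per gene in GENCODE mouse release 21, and tested records a median of 5. Mtap2 has 24 annotated transcripts and Mtap1a has 4, so the pair lies on either side of both medians. The part of transcript number in the failure was not tested.

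**Figure D2:**
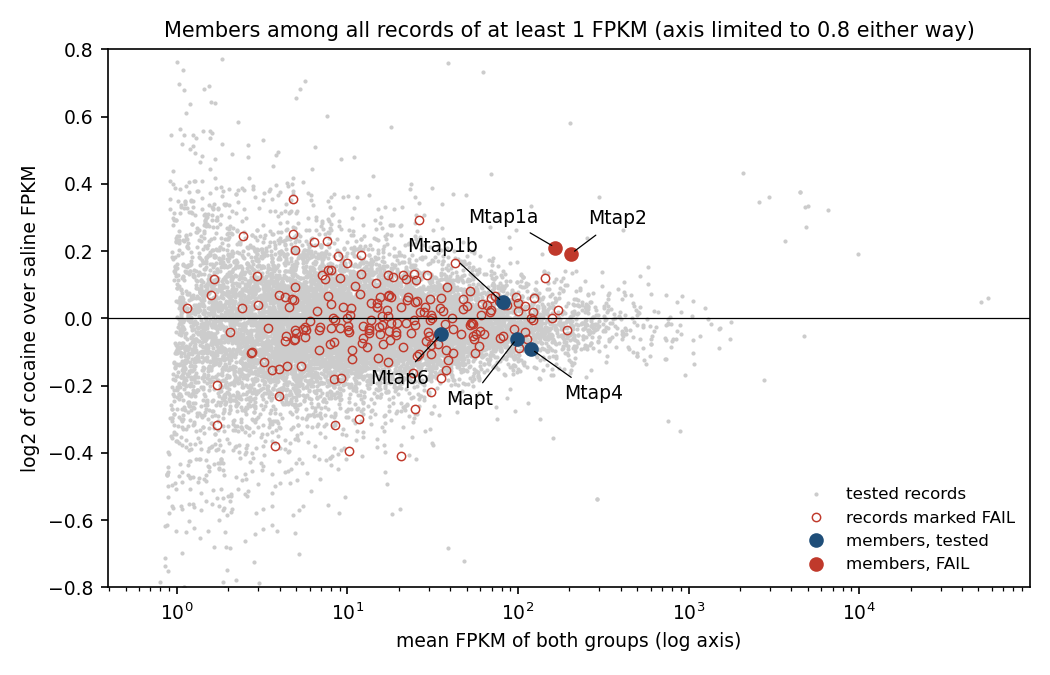
Log2 of cocaine over saline FPKM (vertical) against mean FPKM (horizontal, log axis) for tested records (grey), records marked FAIL (open red circles) and the 6 genes; 53 records beyond 0.8 either way are not drawn. Mtap1a and Mtap2, chosen because their group values differ, lie at 0.21 and 0.19, above the other FAIL records of at least 100 FPKM. The 4 tested genes lie between -0.09 and 0.05.

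Tested genes of like level and ratio show how the authors' test treated such values when it ran. Of 736 tested records with a mean of at least 100 FPKM, 17 had a log2 ratio at or above that of Mtap2. Of these, 11 were called at the deposited q < 0.05. By the prefix of their symbols 8 were mitochondrially encoded mRNAs, and the other 3 called were Lars2, Gm10222 and Gm10925. Whether reads of mitochondrial origin also fell on these 3 was not tested. The remaining 6, Cryab, Gm16499, Kcnab2, Pde1a, Ppp2r4 and Slc1a2, were not called. The tested gene nearest to Mtap1a in mean log2 level and log2 ratio was Ppp2r4, at 155 FPKM in saline and 179.9 FPKM in cocaine, with a p-value of 0.593 in the authors' deposited table. The next nearest were Arpc1a (log2 ratio 0.12) and Sik3 (0.11), neither of which was called. The tested gene nearest to Mtap2 was Prkcb, a protein kinase C, at 197 FPKM in saline and 216 FPKM in cocaine (log2 ratio 0.13). Prkcb was called, with a q-value of 1.86e-05 in the authors' deposited table. Ubl5 (log2 ratio 0.14) and Epb4.1l1 (0.10) came next and were not called. Likeness here rests on 2 group values and says nothing of shared function. Of these nearest genes only Prkcb was called, at a log2 ratio below those of Mtap1a and Mtap2. The 11 called records at or above the ratio of Mtap2 were taken with no upper limit on level or ratio. The group values alone do not tell on which side of the threshold Mtap1a or Mtap2 would lie.

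Of the 4 tested genes 1 was called, Mtap1b, which was higher in cocaine. The background in the authors' deposited table was 184 of 14959 tested records called (1.23%), with 0.521% higher and 0.709% lower. Mtap1b, the MAP1 form of growing axons, rose by 3.36%, from 79.95 to 82.6 FPKM, a log2 fold change of 0.05 with a p-value of 7.48e-06 and a q-value of 0.00147 in the authors' deposited table. Its log2 ratio was 0.01 with the trend of GC content and transcript length removed and 0.07 after centring on the median of tested records. By the same test the other 3 did not pass, and each had a lower value in cocaine. The log2 fold change of Mtap4 was -0.09 (p = 0.265), that of Mapt was -0.06 (p = 0.416) and that of Mtap6 was -0.05 (p = 0.288) as given in the authors' deposited table, where all 3 have a q-value of 0.999976.

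The deposited p-values carry the error that the authors' test used. Dividing the log2 ratio by the normal deviate of its two-sided p gave a back-calculated standard error (SE), which holds only if that test was a normal test of the log ratio. It was 0.01 for Mtap1b, 0.08 for Mtap4, 0.07 for Mapt and 0.04 for Mtap6. The 95% interval of the log2 ratio was 0.03 to 0.07 for Mtap1b and -0.25 to 0.07 for Mtap4. It was -0.21 to 0.08 for Mapt and -0.13 to 0.04 for Mtap6. The intervals of Mtap4, Mapt and Mtap6 each overlap that of Mtap1b, and the differences between these genes were not tested.

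**Figure D3:**
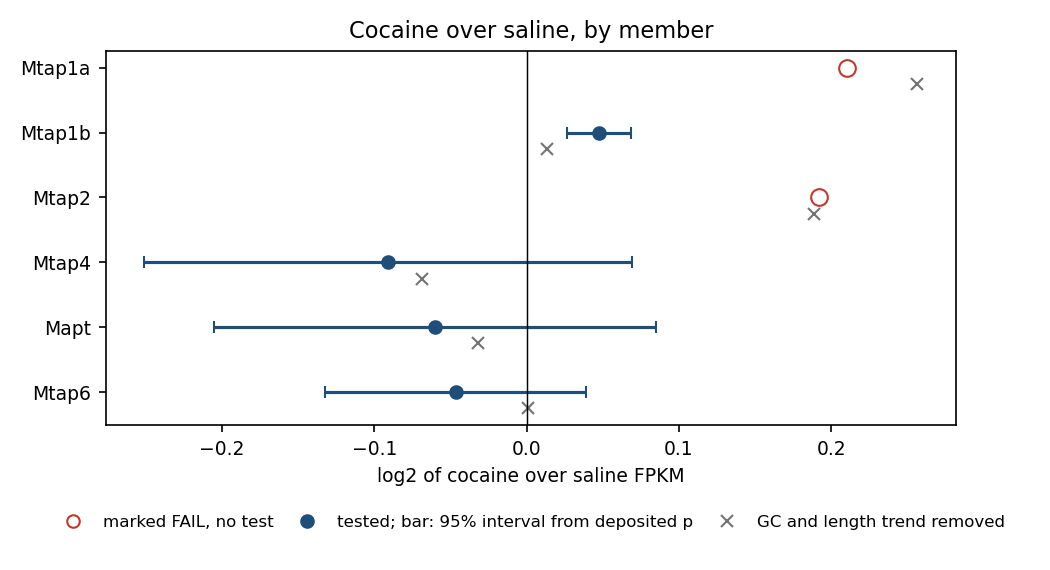
Log2 of cocaine over saline FPKM for each gene: open red circles are the records marked FAIL, which have no error, blue points are tested records with the 95% interval back-calculated from the deposited p, and crosses are the values with the GC and length trend removed. Of the tested genes only the interval of Mtap1b, 0.03 to 0.07, lies to 1 side of 0.

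The SE of Mtap1b stood at the end of its range. Among 993 tested records within 1.5 times its mean level, a window set after the values were seen, the median SE was 0.06, which is larger than the log2 fold change of Mtap1b, and Mtap1b had the smallest of all 993. In that window 29 records were called (2.92%), and each of the others had a change at least as large as that of Mtap1b. The SE of Mtap6 ranked 368th from the smallest of 2098 in its own window. The SE of Mapt ranked 571st of 819 and that of Mtap4 505th of 642. The call of Mtap1b goes with a small log2 fold change and a very small error, and the errors of Mtap4 and Mapt lay above the median of their windows. What variation between libraries the deposited error reflects is not given in the sources used here.

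**Figure D4:**
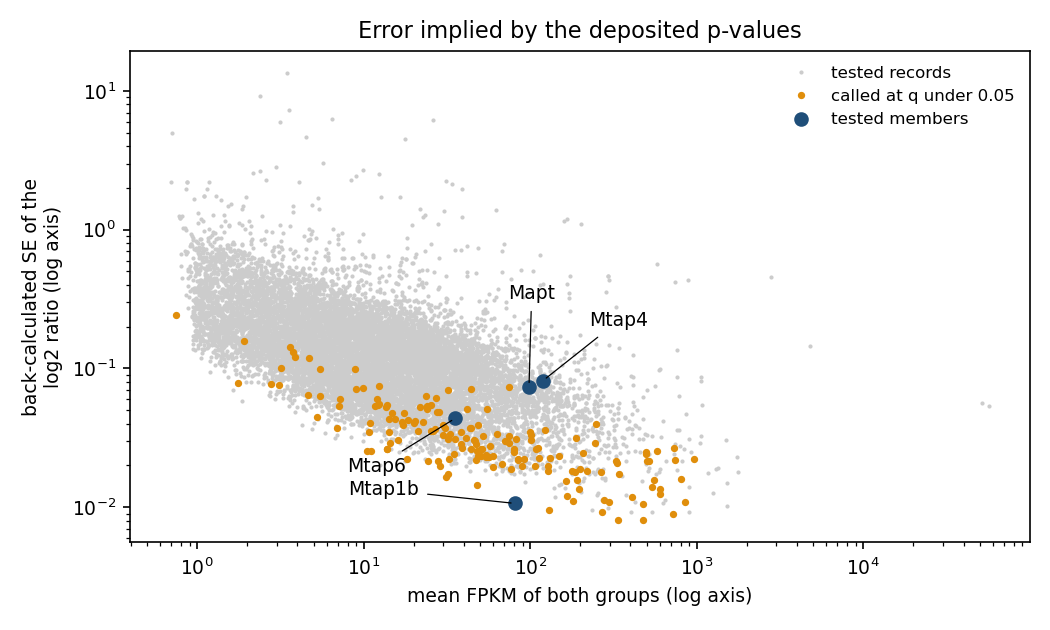
Back-calculated SE of the log2 ratio (vertical, log axis) against mean FPKM (horizontal, log axis) for tested records of at least 1 FPKM (grey), called records (orange) and the 4 tested genes (blue). Mtap1b, at 0.01, lies below the other records of like level, while Mtap4 and Mapt, at 0.08 and 0.07, lie above the median of 0.06 found at each of their levels.

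Transcript length was set beside these values, and its part in them was not tested. The longest annotated transcripts of the 2 MAP1 genes, 11825 bases for Mtap1a and 11808 bases for Mtap1b, fall in the longest of 10 equal bins of tested genes. In that bin 3.09% of 1264 records were called higher and 0.396% lower, and the median log2 ratio was 0.03, against -0.05 in the shortest bin, where 0.789% were called higher. Mtap2 (6258 bases) and Mtap4 (6091 bases) fall in the next longest bin, where 0.555% were called higher and 0.475% lower, and Mapt and Mtap6 in the bin below that. With the trend of the log2 ratio with GC content and length removed, Mtap1b went from 0.05 to 0.01, Mtap1a from 0.21 to 0.26 and Mtap2 from 0.19 to 0.19. Mtap4 went from -0.09 to -0.07 and Mapt from -0.06 to -0.03. Mtap6 went from -0.05 to 0.00089, so its sign is not stable. GC content was 47.6% for the transcript of Mtap1b, 47.8% for that of Mtap2 and between 52.5% and 56.0% for the other 4.

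The rest of the microtubule machinery was taken from lists written with earlier results of these data known, and described by counts beside the background above. Counts at p under 0.05 before adjustment, given for each list, stand against 861 of all 14959 tested records (5.76%) at that p, 2.02% higher and 3.74% lower. Of 10 tested relatives of the 6 genes (the MAP1S, MAP7, MAP9, MAP6D1 and doublecortin families) 0 were called higher and 1 lower, with a median log2 ratio of -0.01 (2 higher and 2 lower before adjustment). The 1 was Mtap1s, the short and widely expressed member of the MAP1 family, at 26.4 FPKM in saline and 24.1 FPKM in cocaine (log2 fold change -0.13, q = 0.0248 in the authors' deposited table). The 2 called MAP1 genes thus had opposite signs, Mtap1b up and Mtap1s down.

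Of 12 tested tubulin genes, most of which encode subunits of the microtubule itself, 0 were called higher and 3 lower. The median log2 ratio was -0.09, and 4 of the 12 ratios lay above 0, the gamma tubulins Tubg1 (0.05) and Tubg2 (0.005) among them. Before adjustment 7 were lower and 0 higher, against 3.74% and 2.02% of all tested records. Removing the trend with GC content and length brought that median to -0.03. The 3 were beta tubulins, each with a mean above 100 FPKM. Of the 736 tested records with a mean of at least 100 FPKM, 64 were called in either direction (8.70%). Tubb2a fell from 208 to 191 FPKM (q = 1.65e-08), Tubb2b from 119 to 108 FPKM (q = 7.83e-08) and Tubb5 from 197 to 178 FPKM (q = 0.000510) in the authors' deposited table. Beta tubulins are close in sequence, so reads could be divided between them and these values are uncertain. Tubb4a and Tubb4b were not analysed here.

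Of 14 tested plus-end binding proteins, which ride on growing microtubule ends, 1 was called higher and 0 lower, with a median of 0.03 (2 higher and 0 lower before adjustment). It was Dst, a giant linker between microtubules and other filaments, at 31.0 FPKM in saline and 33.2 FPKM in cocaine (q = 1.15e-05 in the authors' deposited table). Macf1, the close relative of Dst, and Nav2 are marked FAIL, and their log2 ratios from the group values were -0.02 and -0.05. Of 11 tested destabilising, severing and minus-end proteins 0 were called by the authors' deposited test; before adjustment 2 were lower and 0 higher, with 5.76% of all tested records at that p in either direction. Their median was -0.07, with Stmn3 at 252 FPKM in saline and 251 FPKM in cocaine and Stmn4 at 92.4 FPKM in saline and 96.6 FPKM in cocaine. Katna1, a subunit of the severing enzyme katanin, and Camsap1, a minus-end binder, are marked FAIL at log2 ratios of -0.18 and -0.01. Camsap2 and Camsap3 were not analysed here.

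Among regulators, 0 of 15 tubulin-modifying enzymes were called by the authors' deposited test; before adjustment 1 was higher and 1 lower, beside the same 5.76%, and the median was 0.02. The 2 most abundant were Agtpbp1, which trims glutamates from tubulin, at 119.7 FPKM in saline and 126 FPKM in cocaine, and Ttll7, which adds them, at 81.6 FPKM in saline and 87.3 FPKM in cocaine. Of 24 kinases, phosphatases and partners that act on tau and other microtubule-associated proteins, 1 was called higher and 0 lower, with a median of 0.01 (3 higher and 0 lower before adjustment). It was Ttbk1, the tau tubulin kinase of neurons, at 15.2 FPKM in saline and 16.9 FPKM in cocaine (log2 fold change 0.15, q = 0.000180 in the authors' deposited table).

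Of 10 neurofilament, spectrin and ankyrin genes, the neighbouring neuronal cytoskeleton, 1 was called higher and 0 lower, and 9 of the 10 log2 ratios lay above 0, with a median of 0.07. Before adjustment 5 were higher and 0 lower, against 2.02% and 3.74% of all tested records. Ina, the neurofilament partner internexin, rose from 33.8 to 36.7 FPKM (q = 0.0186 in the authors' deposited table). Over all 14959 tested records the median was -0.02 and 41.0% of ratios lay above 0.

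Cell type markers stood beside these values as follows; the share of all tested records at p under 0.05 before adjustment, for comparison, was 5.76%. Of 8 neuron markers 0 were called by the authors' deposited test, and before adjustment 2, Eno2 and Tubb3, were lower and 0 higher. Tubb3 is also counted among the tubulins above, and Stmn2, another of the 8, among the destabilising proteins. The median of the 8 neuron markers was -0.01 and their summed level 1977 FPKM in saline and 1932 FPKM in cocaine. Eno2 was at 857 FPKM in saline and 821 FPKM in cocaine, and Snap25 at 567 FPKM in saline and 566 FPKM in cocaine. The 9 markers of medium spiny neurons, which make up most neurons there, gave 0 calls by the authors' deposited test, 2 lower values and 0 higher ones before adjustment, and a median of -0.02. The lowest of these 9 in saline was Drd1a, at 65.04 FPKM, and the highest were Penk (1531 FPKM in saline and 1498 FPKM in cocaine) and Ppp1r1b (829 FPKM in saline and 795 FPKM in cocaine). Markers of medium spiny neurons were thus abundant in both groups. The 8 neuron markers reached lower levels, down to Elavl4 at 9.19 FPKM in saline and 10.2 FPKM in cocaine. With the trend of GC content and length removed, the median was 0.01 for neuron markers and 0.01 for medium spiny neuron markers. The signs of these 2 medians are thus not stable.

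Among non-neuronal cells, 0 of 7 astrocyte markers were called by the authors' deposited test, and before adjustment, where 5.76% of all tested records stood at p under 0.05, 3 were higher and 1 lower. Their median was 0.02 and their summed level 698 FPKM in saline and 776 FPKM in cocaine. Slc1a2, the main glutamate transporter of astrocytes, carried most of that difference, at 377 FPKM in saline and 453 FPKM in cocaine, and Slc1a3 was at 171 FPKM in both. The 6 oligodendrocyte markers gave 0 calls by the authors' deposited test, a single higher value (1 of 6) before adjustment, and a median of -0.03. Their leading genes were Mbp (1237 FPKM in saline and 1264 FPKM in cocaine) and Mobp (400.2 FPKM in saline and 431 FPKM in cocaine). The 7 microglia markers gave 0 calls by the authors' deposited test, 0 in either direction before adjustment, and a median of 0.07, with C1qb at 31.9 FPKM in saline and 34.0 FPKM in cocaine and C1qa at 30.5 FPKM in saline and 29.3 FPKM in cocaine. Of 7 endothelial markers 1 was called lower, also the 1 before adjustment, Cldn5 (10.2 to 7.46 FPKM, q = 0.00123 in the authors' deposited table), and all 7 lay below 0 with a median of -0.33 and a summed level of 46.4 FPKM in saline and 38.6 FPKM in cocaine. With the trend of GC content and length removed, the medians were 0.05 for astrocyte, 0.02 for oligodendrocyte, 0.09 for microglia and -0.32 for endothelial markers. The oligodendrocyte median thus changed its sign. The part of these cell types in the values of the 6 genes was not tested.

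**Figure D5:**
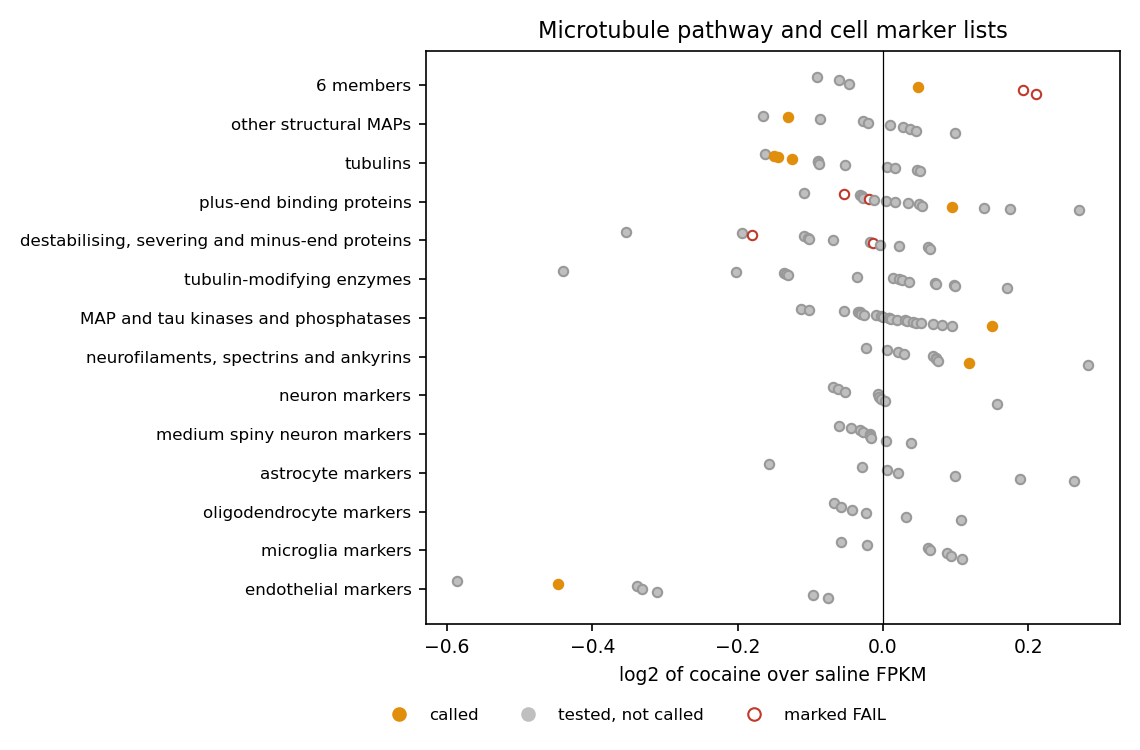
Log2 of cocaine over saline FPKM for the 6 genes and the members of each list, called members in orange, tested members not called in grey and records marked FAIL as open red circles. The tubulins called lie between -0.15 and -0.12, while Mtap1a and Mtap2, with no test, lie at 0.21 and 0.19.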

How the data were processed

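Libraries of nucleus accumbens RNA from 3 cocaine and 3 saline samples were grouped by their treatment label. Per the submitters' processing notes the authors used TopHat2 2.0.6 and Cufflinks 2.0.2 with genome build NCBIM37; neither annotation nor settings are named. The file names no unit; from its layout and the tool, group values were taken to be FPKM as computed by the authors. Each deposited p-value and q-value was copied as it stands. The deposited log2 fold change lay within 3.81e-05 of that recomputed from the group values, leaving out the 217 FAIL records, where 0 is entered, and 763 records with a placeholder for an infinite value. FPKM depends on the annotated transcript length and on the library total. No counting interval could be given, since the depth is unknown.

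Calls use the authors' q < 0.05 among 14959 tested records. No test over libraries could be run, since the table holds group values. The members and the 13 lists were chosen with earlier results of these data known; 146 of 150 list symbols were found, with older symbols matched through RefSeq and GENCODE tables. Named genes were the 6 members, the called members of each list (at most 4, smallest q), in lists with no call the 2 most abundant, and the 3 tested genes nearest to Mtap1a and to Mtap2; FAIL members of lists and the genes named among records of at least 100 FPKM were added after their values were seen. Another 2 list genes are not reported here and were left out of their lists. Length and GC content came from the longest GENCODE mouse release 21 transcript of each Ensembl identifier, found for 97.4% of tested records of at least 1 FPKM, and the median log2 ratio of each of 10 GC by 10 length cells was subtracted. Steps were tested on simulated data. Alternatives were other q thresholds, FPKM minimums, a pseudocount and other scalings. Python 3.11.15, pandas 2.3.3 and scipy 1.17.1 were used.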

Additional observations from a re-analysis of the deposited data

How the results depend on the processing

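The count of 1 called gene among the 6 was the same at q < 0.01, at q < 0.1 and with the deposited p-values adjusted by Benjamini-Hochberg over tested records of at least 1 FPKM, where the q-value of Mtap1b was 0.00108. With a pseudocount of 1 FPKM, after centring on the median of tested records (a shift of 0.02) or after rescaling without mitochondrial mRNAs (a shift of 0.00047), the log2 ratios of all 6 kept their sign. Mtap1b moved by more than its SE in 2 settings, to 0.07 after centring and to 0.01 with the GC and length trend removed. Mtap6 turned from -0.05 to 0.00089 with that trend removed; the alternative subtracts the median of its GC and length cell, -0.05. The share of tested records with a log2 ratio at or above that of Mtap1a, 3.41%, became 1.96% among records of at least 5 FPKM and 2.48% with the trend removed. For Mtap2, 4.21% became 2.58% and 4.82% in the same settings, both chosen after seeing the data. At q < 0.1 the tubulins had 5 calls in place of 3 and the neurofilaments, spectrins and ankyrins 2 in place of 1, and the calls of the other 11 lists moved by no more than 1.5 times in any setting run. No paired analysis was possible because the table holds 1 value per group, and for the same reason no replicate could be left out. Unknown depth and the missing values per library limit each statement here.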
